A study of Mus musculus with 64 samples.

Results

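Chemokines are small secreted proteins that guide the migration of leukocytes, and the genes described here are the mouse chemokines and the receptors that bind them. The set held 67 protein-coding genes of the 52636 genes counted, chosen by name: symbols that open with Ccl, Cxcl, Ccr or Cxcr followed by a digit, together with *Cx3cl1*, *Cx3cr1*, *Xcl1*, *Xcr1* and the atypical receptors *Ackr1* to *Ackr4*. By role it comprised 44 ligands, 19 signaling receptors and 4 atypical receptors. The names made up 62 distinct symbols, because 7 of the members are copies of *Ccl19*, *Ccl21* or *Ccl27* genes on unplaced scaffolds. A gene was tested when it passed a filter on low counts (at least 10 counts, scaled to the median library, in as many libraries as the smallest group holds), and 45 members passed: 25 ligands, 16 signaling receptors and all 4 atypical receptors. Of the 22 members not tested, 11 had no count in any library.

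Total RNA was sequenced from 2 fat depots of male mice, the brown adipose tissue (BAT) and the white epididymal depot (eWAT), and counts per gene were deposited for 64 samples. FANKO mice lack *Nampt*, the rate-limiting enzyme of NAD salvage, in fat: they came from the *Nampt* tm1Jtree line, in which a *Nampt* exon is flanked by loxP sites, crossed with Adiponectin-Cre mice, and WT mice were Cre-negative littermates of that cross. The mice were 2 to 4 months old, and their tissues were taken at ZT 6, 10, 18 or 22, where ZT 0 is lights on, with 4 samples of each depot, genotype and time point. Adiponectin-Cre is used to delete genes in adipocytes, and which cells of the tissue lost *Nampt* was not measured in these bulk samples.

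*Nampt* ranged from 479 to 1454 CPM (counts scaled by library size and TMM factors) with a median of 702 in WT BAT and from 109 to 186 with a median of 143 in FANKO BAT. In eWAT it ranged from 112 to 309.7 CPM in WT mice and from 101 to 131 in FANKO mice. The log2 fold change was -2.31 ± 0.07 in BAT and -0.50 ± 0.07 in eWAT (edgeR adjusted p = 1.09e-36 and 4.67e-09). *Ucp1*, the uncoupling protein of brown adipocytes, had a median of 4305 CPM in WT BAT and 0.213 CPM in WT eWAT. Libraries held 6117343 to 30544847 assigned reads with a median of 15826651, of which 1346 to 21356 fell on the chemokine set. Several libraries stood apart. In 1 WT eWAT library (ZT 6, replicate 2) the epithelial genes *Epcam*, *Cdh1* and *Krt8*, chosen after their values were seen, were at 23.4, 10.7 and 29.6 CPM, against at most 3.22, 1.17 and 19.2 CPM in the other 15. Another WT eWAT library (ZT 6, replicate 4) had 45.8 CPM of summed B cell markers against 5.23 to 21.96 CPM in the other 15, and 1 FANKO eWAT library (ZT 6, replicate 3) had 236 CPM of *Ptprc*, the gene for the pan-leukocyte antigen CD45, against 70.5 to 161 CPM. Finally, 7 BAT libraries, 4 WT and 3 FANKO, held over 100 CPM of summed skeletal muscle markers. Results that rest on these libraries are given with and without them.

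Chemokines are grouped by the spacing of their first cysteines into CC (Ccl), CXC (Cxcl), XC and CX3C ligands, and they act through G protein-coupled receptors that are named after the ligand class they bind. Inflammatory ligands such as *Ccl2* and *Cxcl10* are made on demand by macrophages, stromal cells and adipocytes and recruit monocytes and T cells, whereas homeostatic ligands such as *Cxcl12* and *Cxcl13* place leukocytes within tissues. Atypical receptors bind chemokines without coupling to G proteins and remove or store them: ACKR3 takes up CXCL12, ACKR4 takes up the ligands of CCR7 and CCR9, ACKR2 takes up inflammatory CC ligands, and ACKR1 binds ligands of both major classes on venules and red cells. In adipose tissue the axis formed by *Ccl2* and *Ccr2* is known for bringing monocytes into obese fat. In bulk tissue, fewer cells of a type and less RNA per cell cannot be told apart.

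Promoter windows of RefSeq (GRCm38.p6, 250 bases upstream to 50 bases downstream of the start, written 5′ to 3′ on the gene's strand) were at hand for 46 members. The following 5 are printed because they belong to genes the results turn on: *Cxcl9* and *Cxcl10* are neighbours that share the receptor CXCR3, of which *Cxcl10* but not *Cxcl9* passed the test in eWAT, *Cxcl2* and *Ccl9* are other ligands that rose in BAT, and *Ackr4* had the smallest p-value for a daily rhythm among the members. Capitals mark matches, on either strand, to the interferon-stimulated response element searched as GAAA, any 2 bases and GAAA, and to the NF-kB consensus, and E-boxes searched as CACGTG would be marked as well.
Cxcl9, chr5:92328030-92328329, reverse strand: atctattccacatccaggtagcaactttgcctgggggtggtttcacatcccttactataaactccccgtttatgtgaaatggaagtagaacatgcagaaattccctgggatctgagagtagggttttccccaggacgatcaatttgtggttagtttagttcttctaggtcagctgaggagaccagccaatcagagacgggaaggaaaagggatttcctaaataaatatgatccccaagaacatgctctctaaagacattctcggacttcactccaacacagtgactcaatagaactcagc
Cxcl10, chr5:92348840-92349139, reverse strand: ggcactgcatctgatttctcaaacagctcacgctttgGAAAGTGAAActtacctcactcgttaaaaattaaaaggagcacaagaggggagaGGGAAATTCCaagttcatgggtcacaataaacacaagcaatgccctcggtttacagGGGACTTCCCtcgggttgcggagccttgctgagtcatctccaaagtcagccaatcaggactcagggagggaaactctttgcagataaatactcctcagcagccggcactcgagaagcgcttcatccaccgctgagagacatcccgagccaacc
Cxcl2, chr5:90903649-90903948, forward strand: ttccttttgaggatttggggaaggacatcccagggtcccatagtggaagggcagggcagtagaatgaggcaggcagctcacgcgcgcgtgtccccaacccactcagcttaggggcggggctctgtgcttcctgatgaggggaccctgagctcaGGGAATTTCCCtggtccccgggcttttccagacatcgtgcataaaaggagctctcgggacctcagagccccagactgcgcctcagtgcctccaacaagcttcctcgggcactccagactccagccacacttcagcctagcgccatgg
Ccl9, chr11:83578587-83578886, reverse strand: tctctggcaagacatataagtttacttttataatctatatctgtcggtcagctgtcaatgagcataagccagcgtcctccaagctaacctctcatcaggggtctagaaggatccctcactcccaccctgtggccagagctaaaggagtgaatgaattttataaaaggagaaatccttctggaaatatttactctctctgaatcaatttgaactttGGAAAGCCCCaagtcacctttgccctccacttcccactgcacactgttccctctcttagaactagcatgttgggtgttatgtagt
Ackr4, chr9:104126594-104126893, reverse strand: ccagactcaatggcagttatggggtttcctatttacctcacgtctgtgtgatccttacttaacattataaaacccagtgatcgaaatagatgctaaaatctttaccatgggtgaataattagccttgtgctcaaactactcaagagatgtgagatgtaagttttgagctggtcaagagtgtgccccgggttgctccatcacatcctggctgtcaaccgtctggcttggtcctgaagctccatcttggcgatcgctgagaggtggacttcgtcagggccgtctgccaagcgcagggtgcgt
The *Cxcl10* window held an interferon element and 2 NF-kB matches, the *Cxcl2* window held NF-kB matches on both strands that overlap each other, and the *Ccl9* window held 1 NF-kB match on the reverse strand. The *Cxcl9* and *Ackr4* windows held none of these letters, which says nothing of the factors themselves. Over all 32851 windows of this length, 3.44% held the interferon element, 4.51% the NF-kB consensus and 7.15% the E-box. Among the 46 members, *Ccl19*, *Cxcl10* and *Cxcl14* held the interferon element, *Cxcl3* and *Xcr1* held the E-box, and 10 held the NF-kB consensus (*Ackr2*, *Ccl9*, *Ccl20*, *Ccl27a*, *Ccr3*, *Ccr6*, *Cxcl1*, *Cxcl2*, *Cxcl3* and *Cxcl10*).

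In BAT, loss of *Nampt* went with higher levels of most chemokines and receptors that were tested. At an FDR of 0.01, 36 of the 45 tested members rose, 7 fell, and *Cxcl12* and *Cxcl14* did not pass. Of all 20249 genes tested, 67% passed in BAT, 33.1% higher and 33.9% lower. The median log2 fold change was 3.60 over the tested members and 0.0001 over all tested genes. These shares depend on which members could be tested: 22 members passed the filter on low counts through libraries other than WT BAT, and all 22 rose in FANKO BAT, whereas of the 23 members that passed in WT BAT by itself, 14 rose, 7 fell and 2 did not pass the test. For 31 members every FANKO BAT sample lay above every WT BAT sample (12.5% of all genes tested), and for *Ccl27a* and *Ccr10* every FANKO sample lay below (10% of all genes tested). The 31 include each of those 22 members except *Ackr2*. Scaling by library size alone, in place of TMM, moved the median log2 fold change of all genes to 0.58 in BAT and to -0.27 in eWAT and the split of all calls in BAT to 12785 higher and 2274 lower, and directions that turn under it are named beside the members below.

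**Figure D1:**
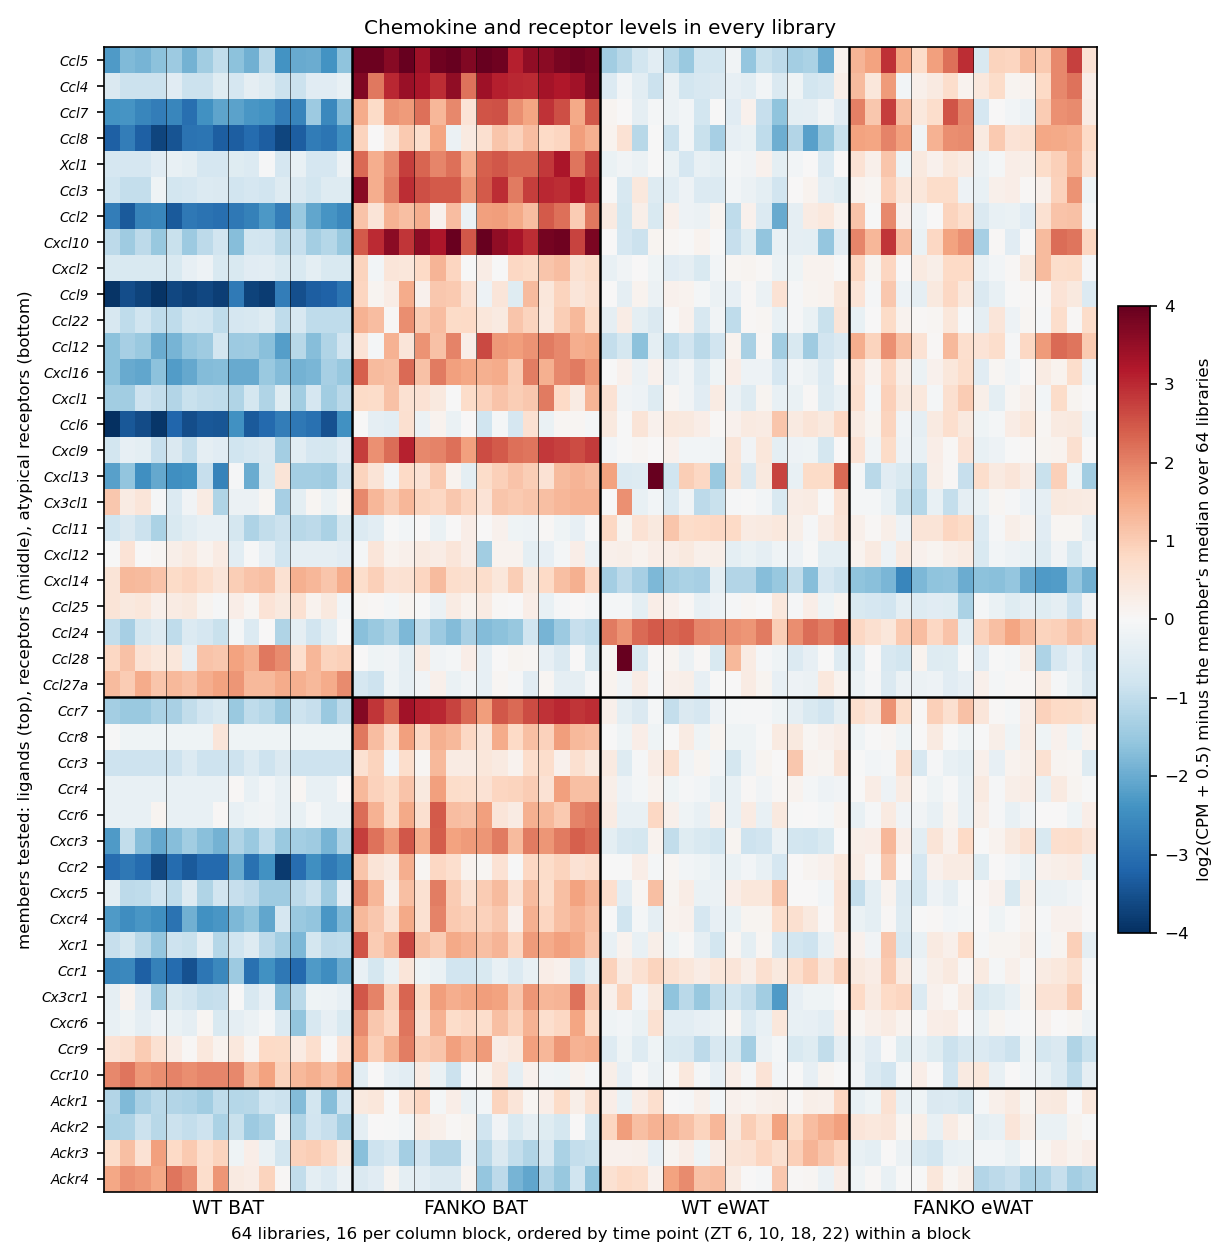
Levels of 44 of the 45 tested chemokines and receptors (one row each) in the 64 libraries (columns, grouped by depot, genotype and time point), as log2(CPM + 0.5) minus the member's median over all libraries, with the colour scale ending at -4 and 4. Most ligands and signaling receptors were lowest in the 16 WT BAT libraries and high in the 16 FANKO BAT libraries, while *Ackr3*, *Ackr4*, *Ccl27a* and *Ccr10* ran the other way in BAT.

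CC ligands formed the largest group. A first cluster of neighbouring genes on chromosome 11 (chr11:82035571-82305690, GRCm38) holds *Ccl2*, *Ccl7*, *Ccl11*, *Ccl12*, *Ccl8* and *Ccl1*, and all 5 of its tested members rose in BAT. *Ccl2*, which recruits monocytes through CCR2, ranged from 0 to 1.33 CPM with a median of 0.281 in WT BAT and from 3.85 to 28.0 CPM with a median of 12.3 in FANKO BAT (log2 fold change 5.45 ± 0.30, edgeR adjusted p = 1.32e-24). *Ccl7*, another ligand of CCR2, ranged from 0 to 0.968 CPM with a median of 0.253 in WT BAT and from 5.40 to 29.3 CPM with a median of 13.8 in FANKO BAT (log2 fold change 5.71 ± 0.32, edgeR adjusted p = 2.79e-24). *Ccl8*, which in the mouse signals through CCR8, ranged from 0 to 0.657 CPM with a median of 0.155 in WT BAT and from 4.90 to 19.8 CPM with a median of 11.1 in FANKO BAT (log2 fold change 5.64 ± 0.31, edgeR adjusted p = 3.85e-24). In all 3 genes the lowest FANKO sample lay above the highest WT sample. *Ccl12* rose from a median of 0.475 to 7.62 CPM (log2 fold change 3.85 ± 0.26). *Ccl11*, the eosinophil attractant eotaxin, was already expressed in WT BAT at a median of 9.98 CPM and rose less, to 17.1 CPM, with overlapping samples (log2 fold change 0.74 ± 0.09, edgeR adjusted p = 7e-11). *Ccl1* had a median of 0 CPM in every group and was not tested.

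A second cluster on the same chromosome (chr11:83525778-83664683) holds *Ccl5*, *Ccl9*, *Ccl6*, *Ccl3* and *Ccl4*, and all 5 rose in BAT. *Ccl5* (RANTES), which T cells and NK cells make in quantity and which binds CCR1, ranged from 0 to 0.847 CPM with a median of 0.259 in WT BAT and from 22.1 to 52.7 CPM with a median of 37.3 in FANKO BAT (log2 fold change 6.99 ± 0.32, edgeR adjusted p = 2.4e-28). That was the largest fold change of the tested members in BAT. *Ccl4* ranged from 0 to 0.239 CPM with a median of 0.0860 in WT BAT and from 3.41 to 11.5 CPM with a median of 7.98 in FANKO BAT (log2 fold change 6.39 ± 0.33, edgeR adjusted p = 8.54e-26). It had only 19 counts over the 16 WT libraries, and the ratio of summed counts per library size was 81.2 (95% interval 51.9 to 135), an interval that covers counting error only. *Ccl3* rose from a median of 0.103 to 5.69 CPM (log2 fold change 5.55 ± 0.31). *Ccl6*, a myeloid ligand, ranged from 2.43 to 8.26 CPM with a median of 3.99 in WT BAT and from 26.2 to 72.0 CPM with a median of 43.6 in FANKO BAT (log2 fold change 3.29 ± 0.14, edgeR adjusted p = 1.76e-29). *Ccl9*, its neighbour, ranged from 2.09 to 5.24 CPM with a median of 2.65 in WT BAT and from 27.9 to 110.1 CPM with a median of 56.5 in FANKO BAT (log2 fold change 4.34 ± 0.18, edgeR adjusted p = 8.75e-31). Neither of these myeloid ligands overlapped between genotypes in BAT, although both started from a higher level than *Ccl3*, *Ccl4* and *Ccl5*.

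Among CXC ligands, the interferon-induced pair rose together. *Cxcl9* (chr5:92321347-92348889 holds it and *Cxcl10*) ranged from 7.34 to 15.6 CPM with a median of 12.6 in WT BAT and from 62.5 to 169 CPM with a median of 103 in FANKO BAT (log2 fold change 3.08 ± 0.11, edgeR adjusted p = 9.34e-33). *Cxcl10* ranged from 2.48 to 5.30 CPM with a median of 4.08 in WT BAT and from 52.2 to 275 CPM with a median of 104 in FANKO BAT (log2 fold change 4.77 ± 0.23, edgeR adjusted p = 9.93e-27). It overlaps *Art3* on the other strand, and *Art3* fell in BAT (log2 fold change -1.16 ± 0.06). *Cxcl16*, the transmembrane ligand of CXCR6, rose from a median of 2.41 to 29.4 CPM (log2 fold change 3.76 ± 0.14), and its overlapping gene *Zmynd15* rose as well, by 3.18 ± 0.20. The neutrophil attractants *Cxcl1* and *Cxcl2* rose by 3.68 ± 0.27 and 4.49 ± 0.43 on the log2 scale and stayed low, at medians of 1.75 and 0.771 CPM in FANKO BAT. *Cxcl2* had 6 counts over the 16 WT BAT libraries, and the ratio of summed counts was 23.03 (95% interval 10.4 to 63.5). *Cxcl13*, which attracts B cells through CXCR5, ranged from 0 to 4.02 CPM with a median of 0.618 in WT BAT and from 1.90 to 7.53 CPM with a median of 5.18 in FANKO BAT (log2 fold change 2.92 ± 0.48, edgeR adjusted p = 2.26e-07), and its samples overlapped.

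*Cxcl12*, the homeostatic ligand of CXCR4 and ACKR3, ranged from 41.5 to 106 CPM with a median of 72.2 in WT BAT and from 27.3 to 103 CPM with a median of 80.5 in FANKO BAT (log2 fold change 0.14 ± 0.09, edgeR adjusted p = 0.14). The genotypes overlapped almost entirely, and scaling by library size alone gave 0.72 with an edgeR adjusted p of 1.51e-11. *Cxcl14*, a ligand of unsettled receptor use that brown fat releases, ranged from 7.77 to 16.1 CPM with a median of 12.5 in WT BAT and from 7.23 to 15.3 CPM with a median of 9.49 in FANKO BAT (log2 fold change -0.20 ± 0.12, edgeR adjusted p = 0.109), and its direction turned to 0.39 under scaling by library size alone. In the XC and CX3C classes, *Xcl1* rose by 5.62 ± 0.32 on the log2 scale, from a median of 0.0250 to 3.41 CPM, with 14 counts over the 16 WT BAT libraries and a ratio of 50.7 (95% interval 30.0 to 93.0). *Cx3cl1* (fractalkine) rose by 1.35 ± 0.18, from 2.09 to 5.54 CPM. *Ccl22*, a ligand of CCR4, rose by 4.23 ± 0.39 to a median of 1.44 CPM, with 15 counts over the 16 WT BAT libraries and a ratio of 19.1 (95% interval 11.4 to 34.4).

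Only 4 of the tested ligands fell in BAT. *Ccl27a*, a skin-type ligand of CCR10, ranged from 4.96 to 9.50 CPM with a median of 6.41 in WT BAT and from 1.00 to 2.56 CPM with a median of 1.82 in FANKO BAT without overlap (log2 fold change -1.88 ± 0.10, edgeR adjusted p = 2.64e-24). *Ccl28*, the other ligand of CCR10, ranged from 0.423 to 4.56 CPM with a median of 1.85 in WT BAT and from 0.268 to 0.948 CPM with a median of 0.585 in FANKO BAT (log2 fold change -1.73 ± 0.42, edgeR adjusted p = 0.000213), and with scaling by library size alone its fold change of -1.14 had an adjusted p of 0.0116. *Ccl24*, an eotaxin, fell from a median of 0.795 to 0.208 CPM (log2 fold change -1.59 ± 0.25). *Ccl25* fell from 11.2 to 8.85 CPM (log2 fold change -0.27 ± 0.08, edgeR adjusted p = 0.00154), and with scaling by library size alone it turned to 0.32 (adjusted p = 0.00228). The other 3 kept their direction in BAT under each scaling. *Ccl27a* overlaps *Il11ra1* and *Ccl25* overlaps *Elavl1*, each on the other strand, with log2 fold changes of -0.33 ± 0.05 and -0.15 ± 0.04 in BAT. Whether the counting used strand is not given in the sources used here.

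Of the 16 signaling receptors tested, 15 rose in BAT and 14 did so without overlap between genotypes. Over all genes tested, 33.1% rose, and for 12.5% every FANKO BAT sample lay above every WT BAT sample. Among these receptors *Ccr1*, *Ccr3*, *Ccr4*, *Ccr6*, *Ccr7*, *Ccr8*, *Cxcr3*, *Cxcr5* and *Xcr1* passed the filter on low counts only through libraries other than WT BAT. The counts of receptors therefore depend in part on that filter. *Ccr2*, the monocyte receptor of *Ccl2*, *Ccl7* and *Ccl12*, ranged from 4.02 to 15.4 CPM with a median of 7.40 in WT BAT and from 63.6 to 177 CPM with a median of 99.7 in FANKO BAT (log2 fold change 3.61 ± 0.13, edgeR adjusted p = 1.06e-32). *Ccr7*, which leads dendritic cells and naive T cells to lymph nodes, ranged from 0 to 0.424 CPM with a median of 0.112 in WT BAT and from 4.02 to 17.4 CPM with a median of 9.71 in FANKO BAT (log2 fold change 6.06 ± 0.26, edgeR adjusted p = 5.79e-30). The samples of the 2 genotypes were far apart for both. *Cxcr3*, the receptor of *Cxcl9* and *Cxcl10* on activated T and NK cells, ranged from 0 to 0.709 CPM with a median of 0.350 in WT BAT and from 5.28 to 15.98 CPM with a median of 9.62 in FANKO BAT (log2 fold change 4.86 ± 0.22, edgeR adjusted p = 3.54e-28). *Cxcr4* ranged from 0.467 to 4.19 CPM with a median of 1.19 in WT BAT and from 8.01 to 29.1 CPM with a median of 15.4 in FANKO BAT (log2 fold change 3.53 ± 0.16, edgeR adjusted p = 4.81e-29). *Ccr1* rose by 3.32 ± 0.19, *Cxcr5* by 3.60 ± 0.29, *Xcr1*, a mark of cross-presenting dendritic cells, by 3.44 ± 0.24, and *Cx3cr1* by 2.42 ± 0.18 on the log2 scale.

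Other receptors rose from near 0. *Ccr8* had 3 counts over the 16 WT BAT libraries and 214 over the 16 FANKO BAT libraries, a ratio of 52.4 (95% interval 17.7 to 256). The ratio was 36.0 (95% interval 13.8 to 133) for *Ccr3*, the eosinophil receptor, 22.8 (95% interval 10.3 to 62.9) for *Ccr4* and 38.8 (95% interval 17.6 to 107) for *Ccr6*. None of these 4 had a median above 1.08 CPM in FANKO BAT. *Cxcr6* rose by 1.65 ± 0.13 and *Ccr9* by 0.98 ± 0.14 on the log2 scale, and *Ccr9* was the receptor whose genotypes overlapped. *Ccr10* fell, as both of its ligands did, and ranged from 3.84 to 9.78 CPM with a median of 7.55 in WT BAT and from 0.787 to 2.74 CPM with a median of 1.65 in FANKO BAT (log2 fold change -2.02 ± 0.13, edgeR adjusted p = 1.32e-21). It overlaps *Cntnap1* on the other strand, which fell by 2.32 ± 0.09 on the log2 scale, so that reads of the 2 genes cannot be told apart if the counting ignored strand.

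The atypical receptors divided. *Ackr3* ranged from 20.01 to 107 CPM with a median of 56.8 in WT BAT and from 10.2 to 29.1 CPM with a median of 17.2 in FANKO BAT (log2 fold change -1.60 ± 0.11, edgeR adjusted p = 4.69e-20). *Ackr4* ranged from 2.82 to 28.2 CPM with a median of 10.98 in WT BAT and from 1.06 to 6.64 CPM with a median of 3.57 in FANKO BAT (log2 fold change -1.88 ± 0.14, edgeR adjusted p = 1.44e-18). FANKO samples reached into the low end of the WT range for both, and their fall held under each scaling. *Ackr4* overlaps *Acad11*, an enzyme of fatty acid oxidation on the other strand, which fell by 1.91 ± 0.08 in BAT and by 0.35 ± 0.08 in eWAT. *Ackr1* rose from a median of 0.474 to 2.22 CPM (log2 fold change 2.23 ± 0.17) and *Ackr2* from 0.579 to 1.51 CPM (1.22 ± 0.18). *Ackr1* shares its strand with *Cadm3*, which rose by 0.91 ± 0.10.

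**Figure D2:**
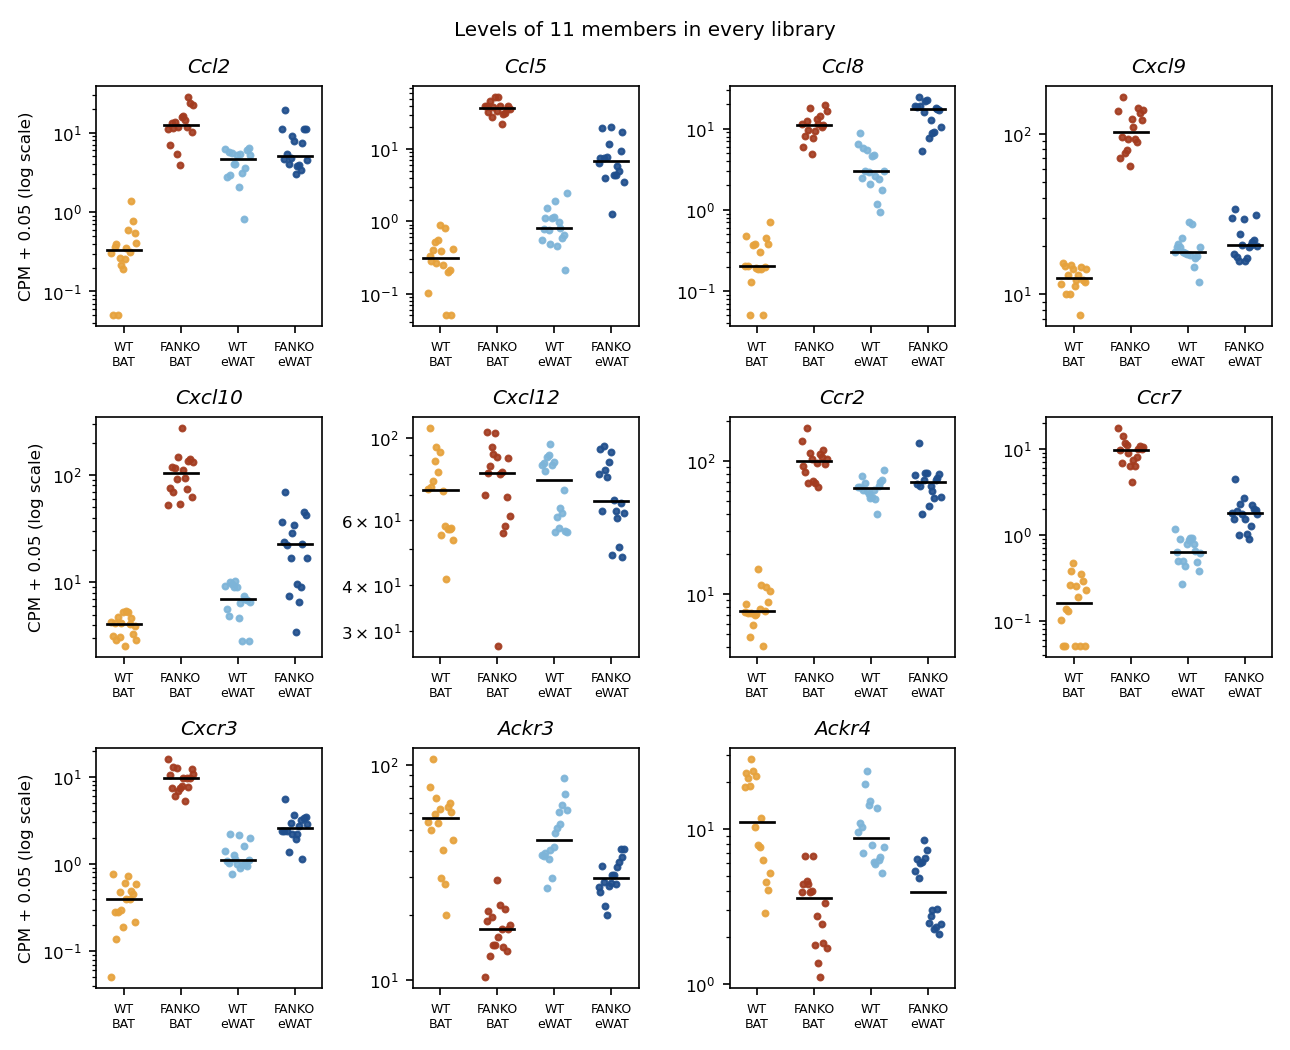
CPM of 11 chemokines and receptors in each of the 64 libraries, 16 per depot and genotype, on a log axis of CPM + 0.05 with a line at each group's median. *Ccl5* sat at 0 to 0.847 CPM in WT BAT and 22.1 to 52.7 CPM in FANKO BAT, *Cxcl12* had medians of 67.3 to 80.5 CPM in the 4 groups, and *Ackr3* and *Ackr4* were lower in FANKO than in WT tissue.

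Markers of leukocytes moved along with these genes in BAT. *Ptprc* ranged from 10.3 to 22.8 CPM with a median of 13.7 in WT BAT and from 240.3 to 615 CPM with a median of 424 in FANKO BAT (log2 fold change 4.89 ± 0.14), and 12 of the 45 tested members had a larger log2 fold change than *Ptprc*. All 12 passed the filter on low counts only through libraries other than WT BAT, where their medians were at most 0.281 CPM. The share of all genes above *Ptprc* was not counted, so the 12 are a description only. All 5 T cell markers rose, and their summed level went from 0.611 to 3.05 CPM in WT to 32.5 to 108 CPM in FANKO BAT. The sum of the 3 NK cell markers went from 0 to 1.19 CPM to 11.8 to 27.1 CPM, and that of the 4 B cell markers, of which all rose, from 0.612 to 4.90 CPM to 7.67 to 64.8 CPM. Among macrophage markers 5 of 6 rose and *Cd14* fell, with sums of 60.1 to 118 CPM in WT and 257 to 599 CPM in FANKO BAT. Of the 4 dendritic cell markers, 3 rose and *Zbtb46* fell, a fall that turned to 0.21 with scaling by library size alone, and all 4 stromal markers rose. Among granulocyte markers, 2 of 3 tested neutrophil genes, 2 of 3 mast cell genes and *Il5ra*, the 1 eosinophil gene tested, rose. In the same libraries all 4 adipocyte markers fell, with sums of 8800 to 11895 CPM in WT and 3948 to 7106 CPM in FANKO BAT, and 3 of 4 endothelial markers fell. Under scaling by library size alone the adipocyte gene *Cidec* and the endothelial genes *Cdh5* and *Tek* turned to 0.074, 0.076 and 0.098. None of the T, NK, B cell, macrophage or dendritic cell markers had 0 counts throughout a group. Their part in the chemokine results was not tested.

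In eWAT, 17 of the 45 tested members rose, 10 fell and 18 did not pass. *Nampt* mRNA fell less there than in BAT, and whether that bears on these counts was not tested. Of all genes tested, 50.3% passed in eWAT, 27.6% higher and 22.8% lower. The median log2 fold change was 0.16 over the tested members and -0.02 over all tested genes. No member had every FANKO eWAT sample above or below every WT eWAT sample, where 4.57% and 1.33% of all genes did. With scaling by library size alone the split of the members was 13 higher and 17 lower and that of all genes 2389 higher and 8592 lower, and with RLE factors the split of all genes was 4749 and 5519. Of the ligands 12 rose and 6 fell, of the signaling receptors 5 rose and 1 fell, and of the atypical receptors 3 fell.

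The CC ligands of lymphocytes and monocytes led the rise in eWAT. *Ccl5* ranged from 0.165 to 2.44 CPM with a median of 0.7501 in WT eWAT and from 1.22 to 19.97 CPM with a median of 6.82 in FANKO eWAT (log2 fold change 3.15 ± 0.26, edgeR adjusted p = 3.84e-16). *Ccl4* ranged from 0 to 0.563 CPM with a median of 0.146 in WT eWAT and from 0.338 to 3.58 CPM with a median of 0.717 in FANKO eWAT (log2 fold change 2.55 ± 0.30, edgeR adjusted p = 1.26e-10). *Ccl12* ranged from 0.357 to 2.48 CPM with a median of 1.08 in WT eWAT and from 2.10 to 12.3 CPM with a median of 4.82 in FANKO eWAT (log2 fold change 2.28 ± 0.21, edgeR adjusted p = 5.64e-14). For each the genotypes overlapped at the margins only, with FANKO medians above the WT medians. *Ccl8* ranged from 0.893 to 8.90 CPM with a median of 2.93 in WT eWAT and from 5.28 to 24.6 CPM with a median of 17.3 in FANKO eWAT (log2 fold change 2.10 ± 0.20, edgeR adjusted p = 5.26e-14). *Ccl7* ranged from 0.807 to 4.03 CPM with a median of 2.77 in WT eWAT and from 2.04 to 26.9 CPM with a median of 7.80 in FANKO eWAT (log2 fold change 1.68 ± 0.22, edgeR adjusted p = 1.1e-09). *Cxcl10* ranged from 2.76 to 10.1 CPM with a median of 6.88 in WT eWAT and from 3.38 to 69.1 CPM with a median of 22.5 in FANKO eWAT (log2 fold change 1.64 ± 0.21, edgeR adjusted p = 8.06e-10). The low end of FANKO *Ccl7* and *Cxcl10* lay inside the WT range. *Ccl3* rose by 1.59 ± 0.27 and *Xcl1* by 1.61 ± 0.28, and *Cxcl2* and *Cxcl1* rose by 1.43 ± 0.29 and 0.70 ± 0.21 on the log2 scale.

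*Ccl2* moved little in eWAT, where it ranged from 0.772 to 6.36 CPM with a median of 4.57 in WT eWAT and from 2.97 to 19.3 CPM with a median of 5.02 in FANKO eWAT (log2 fold change 0.66 ± 0.20, edgeR adjusted p = 0.00317). It did not pass without replicate 3 (0.42, adjusted p = 0.124), without FANKO ZT 6 replicate 3, which had the highest *Ccl2* of all eWAT libraries at 19.3 CPM (0.57, 0.0112), without 3 WT eWAT libraries described below (0.55, 0.0131), in a separate edgeR fit of eWAT (0.62, 0.0152) or with scaling by library size alone (0.43, 0.0519). *Cxcl9*, unlike its neighbour *Cxcl10*, ranged from 11.9 to 27.9 CPM with a median of 18.3 in WT eWAT and from 16.01 to 34.0 CPM with a median of 20.2 in FANKO eWAT (log2 fold change 0.20 ± 0.11, edgeR adjusted p = 0.102), and its direction turned under scaling by library size alone (-0.045). *Ccl6* and *Ccl9*, the abundant myeloid ligands of WT eWAT, had log2 fold changes of -0.16 ± 0.11 and 0.17 ± 0.14 (edgeR adjusted p = 0.225 and 0.274). With scaling by library size alone *Ccl6* passed as lower (-0.40) and *Ccl9* turned to -0.071. *Cxcl12* again showed no difference that passed, -0.06 ± 0.09 (adjusted p = 0.582), but passed as lower with scaling by library size alone (-0.31, 0.00126). *Cxcl16* rose by 0.40 ± 0.12, a rise that did not pass without replicate 3 (0.19, 0.21) or with scaling by library size alone (0.16, 0.289).

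Among receptors in eWAT, *Ccr7* ranged from 0.219 to 1.13 CPM with a median of 0.585 in WT eWAT and from 0.840 to 4.43 CPM with a median of 1.72 in FANKO eWAT (log2 fold change 1.47 ± 0.20, edgeR adjusted p = 5.14e-09). *Cxcr3* ranged from 0.712 to 2.13 CPM with a median of 1.05 in WT eWAT and from 1.08 to 5.47 CPM with a median of 2.51 in FANKO eWAT (log2 fold change 1.12 ± 0.18, edgeR adjusted p = 1.9e-07). Their FANKO medians exceeded the WT medians, with overlap. *Cx3cr1* rose by 0.99 ± 0.18 (edgeR adjusted p = 2.74e-06). *Xcr1* rose by 0.62 ± 0.21 (adjusted p = 0.00869), a call lost under most alternatives, with adjusted p-values of 0.0116 to 0.285 where it was lost. *Ccr2* ranged from 40.1 to 85.5 CPM with a median of 62.2 in WT eWAT and from 40.2 to 137 CPM with a median of 69.2 in FANKO eWAT (log2 fold change 0.16 ± 0.11, edgeR adjusted p = 0.214), and its direction turned without replicate 3 and with scaling by library size alone (-0.077). *Ccr1*, *Cxcr4* and *Cxcr6* did not pass either, at -0.31 ± 0.13, -0.11 ± 0.13 and 0.22 ± 0.13 on the log2 scale. *Ccr1* passed as lower under 5 alternatives, and *Cxcr6* passed as higher without replicate 4 (0.44) or without 3 of its WT libraries (0.40) and turned to -0.030 with scaling by library size alone.

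The members that fell in eWAT included the ligand and the receptor of the B cell axis. *Cxcl13* ranged from 0.627 to 49.9 CPM with a median of 4.47 in WT eWAT and from 0.714 to 5.65 CPM with a median of 2.39 in FANKO eWAT (log2 fold change -1.62 ± 0.36, edgeR adjusted p = 0.000117). Its 3 highest WT eWAT libraries were replicate 4 at ZT 6, 18 and 22, with 49.9, 19.9 and 14.7 CPM, and without them the log2 fold change was -0.52 (edgeR adjusted p = 0.105). *Cxcr5* fell by -0.87 ± 0.24 (adjusted p = 0.00166), which did not pass without those libraries (-0.56, 0.0392), without replicate 1 (-0.75, 0.0236) or without replicate 4 (-0.66, 0.0338). It overlaps *Bcl9l* on the other strand, which had a log2 fold change of -0.90 ± 0.09 in eWAT. Their reads cannot be told apart if the counting ignored strand. All 4 B cell markers fell in eWAT, with summed levels of 5.23 to 45.8 CPM in WT and 4.28 to 10.2 CPM in FANKO mice, and the 3 libraries held 45.8, 21.96 and 19.2 CPM of them. *Ccl28* had a log2 fold change of -1.84 ± 0.43 (edgeR adjusted p = 0.000204), which rested on WT ZT 6 replicate 2, the library with epithelial genes: it held 22.97 CPM of *Ccl28*, against 0.261 to 2.35 CPM in the other 15 WT eWAT libraries, and without it the value was -0.55 (adjusted p = 0.0528). The part of these marker genes in the results was not tested.

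*Ccl11* fell from a median of 25.1 to 19.4 CPM in eWAT (log2 fold change -0.38 ± 0.08, edgeR adjusted p = 7e-05), and did not pass without replicate 1 (-0.24, adjusted p = 0.0234). *Ccl24* fell from 7.68 to 3.37 CPM (log2 fold change -1.18 ± 0.15). *Cxcl14* fell from 1.92 to 1.27 CPM (-0.82 ± 0.15), and *Ccl25* from 8.57 to 6.02 CPM (-0.54 ± 0.08). *Ackr3* ranged from 26.7 to 86.5 CPM with a median of 44.9 in WT eWAT and from 19.96 to 40.5 CPM with a median of 29.6 in FANKO eWAT (log2 fold change -0.66 ± 0.11, edgeR adjusted p = 3.28e-07). *Ackr4* ranged from 5.12 to 23.6 CPM with a median of 8.70 in WT eWAT and from 2.06 to 8.42 CPM with a median of 3.90 in FANKO eWAT (log2 fold change -1.30 ± 0.13, edgeR adjusted p = 1.55e-12). *Ackr2*, the scavenger of inflammatory CC ligands, fell from a median of 4.60 to 1.86 CPM (-1.27 ± 0.14), opposite to its rise in BAT (difference between depots 2.498 ± 0.22). *Ackr1* did not pass (-0.25 ± 0.14, adjusted p = 0.117). In the same libraries all 4 stromal and all 3 mesothelial markers fell, with stromal sums of 1372 to 1771 CPM in WT and 729 to 994 CPM in FANKO eWAT, while 4 of 5 T cell and all 3 NK cell markers rose. *Ptprc* ranged from 57.2 to 103 CPM in WT and from 70.5 to 236 CPM in FANKO eWAT (log2 fold change 0.71 ± 0.12), and 15 tested members had a larger log2 fold change, a count without the share of all genes beside it. The macrophage sum was 355 to 499.7 CPM in WT and 331 to 556 CPM in FANKO eWAT. Their part in the result was not tested.

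Set side by side, 17 members rose in both depots (9.71% of all genes) and 5 fell in both (7.66% of all genes): *Ackr3*, *Ackr4*, *Ccl24*, *Ccl25* and *Ccl28*, the last of which did not pass in eWAT without the library with epithelial genes. Of those that rose in both, *Ccl2*, *Cxcl16* and *Xcr1* lost the eWAT call under alternatives given above. Another 15 rose in BAT and did not pass in eWAT (16.5% of all genes), and 4 rose in BAT and fell in eWAT (6.92% of all genes): *Ackr2*, *Ccl11*, *Cxcl13* and *Cxcr5*. As given above, the eWAT call of *Ccl11* was lost without replicate 1, and those of *Cxcl13* and *Cxcr5* without 3 WT eWAT libraries. *Ccl27a* and *Ccr10* fell in BAT and did not pass in eWAT. *Ccl27a* did pass as lower in eWAT with RLE factors (-0.31, adjusted p = 0.00922) and library size alone (-0.49, 0.000135), as did *Ccr10* with DESeq2 (-0.39, 0.00826) and library size alone (-0.55, 0.000465). *Cxcl14* fell in eWAT alone. The genotype effect in BAT minus that in eWAT was itself tested, and it passed for 41 members, with a larger value in BAT for 37 and a smaller value for *Ackr3*, *Ackr4*, *Ccl27a* and *Ccr10* (64.3% of all genes passed, 32.2% and 32.1% by direction, which became 13674 and 1573 genes under scaling by library size alone). These counts, like those of members that rose in BAT, depend in part on the filter on low counts. Through libraries other than WT BAT alone, 22 members passed it, and all 22 rose in FANKO BAT. The smallest p-values belonged to *Ccr2* (difference 3.45 ± 0.17, edgeR adjusted p = 6.99e-26), *Ccl6* (difference 3.45 ± 0.18, edgeR adjusted p = 7.19e-25), *Cxcl9* (difference 2.89 ± 0.15, edgeR adjusted p = 1e-24) and *Cxcl16* (difference 3.36 ± 0.18, edgeR adjusted p = 1.06e-24). The difference was 3.14 ± 0.31 for *Cxcl10* and 3.85 ± 0.48 for *Ccl5*. For *Ackr3* it was -0.94 ± 0.15 (edgeR adjusted p = 1.66e-07), and with scaling by library size alone it was -0.11 (0.474). For *Ackr4* it was -0.58 ± 0.19 (adjusted p = 0.00648), a call lost under 9 of the alternatives, and it turned to 0.26 with scaling by library size alone. *Cxcl12*, *Ccl24*, *Ccl25* and *Ccl28* did not pass. *Cxcl12* did pass with scaling by library size alone (1.03, adjusted p = 1.28e-11), and *Ccl28* without the library with epithelial genes, at -1.17 (adjusted p = 0.00185).

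**Figure D3:**
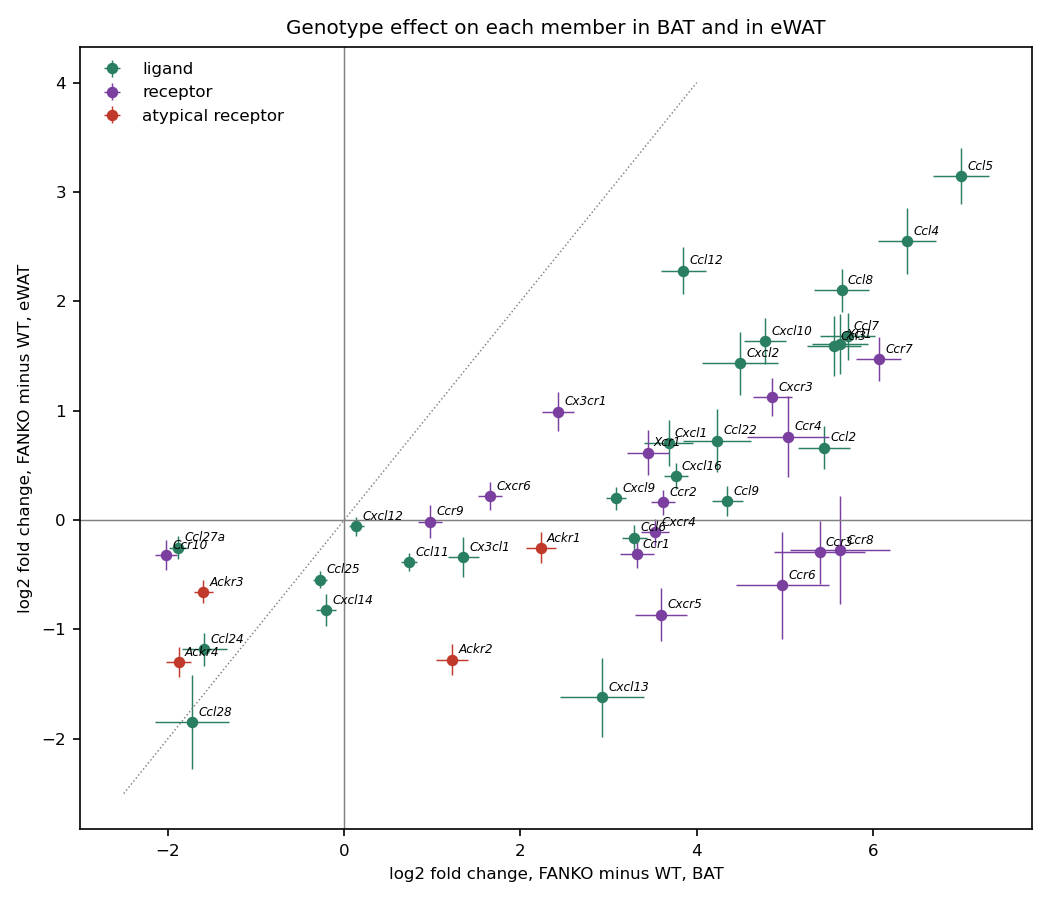
FANKO versus WT log2 fold change of 44 of the 45 tested members in BAT (horizontal) and eWAT (vertical), with bars of 1 standard error and a dotted line where both are equal. Most points lie below and to the right of the dotted line, and *Ccl5* is the farthest to the right at 6.99 and 3.15.

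Between depots of WT mice, 37 members differed, 5 higher in BAT and 32 higher in eWAT (73.7% of all genes passed, 32.7% higher in BAT and 41.1% lower, or 2363 and 14884 genes under scaling by library size alone). Of the 45 tested members, 23 passed the filter on low counts in WT BAT by itself and 38 in WT eWAT. The split of the members therefore depends in part on which of them could be tested. *Cxcl14* had medians of 12.5 CPM in WT BAT and 1.92 CPM in WT eWAT (log2 fold change 2.45 ± 0.13, edgeR adjusted p = 1.22e-25), and *Ccr10* had 7.55 and 1.79 CPM (1.91 ± 0.13). *Ccl27a*, *Ccl25* and *Ccr9* were the others higher in BAT, at 1.54 ± 0.10, 0.30 ± 0.08 and 1.201 ± 0.15, of which *Ccl25* turned to -0.45 with scaling by library size alone. At the other end, *Ccr1* had medians of 0.381 and 7.68 CPM (log2 fold change -4.28 ± 0.19, edgeR adjusted p = 1.63e-29), and *Ccr3* a log2 difference of -4.72 ± 0.54 on 4 counts in WT BAT. *Ccl6* and *Ccl9* were lower in WT BAT by -3.76 ± 0.14 and -3.72 ± 0.17, and *Ccr2* by -2.93 ± 0.13 on the log2 scale. *Cxcl12*, *Ackr3* and *Ackr4* did not pass, at -0.07 ± 0.09, 0.16 ± 0.10 and 0.21 ± 0.13, and with scaling by library size alone, which moved the median of all genes to -0.86, *Ackr3* and *Ackr4* turned to -0.59 and -0.55 and *Cxcl12* passed as lower in BAT (-0.83, 1.01e-13). *Cx3cr1*, at 0.07 ± 0.19, turned to -0.69 with that scaling. *Ccl28* and *Cx3cl1* did not pass with all libraries, and without the epithelial library *Ccl28* was higher in WT BAT by 1.60 (edgeR adjusted p = 3.83e-09).

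In FANKO mice 35 members differed between depots, 30 of them higher in BAT and 5 lower (59.7% of all genes passed, 28.1% higher and 31.6% lower, or 5680 and 6408 genes, a split that turned round to 6727 and 5428 with RLE factors, 6801 and 5495 with DESeq2 and 6417 and 4993 with library size alone). For 23 members (9.66% of all genes) the depots changed places, from lower in BAT of WT mice to higher in BAT of FANKO mice, among them *Ccr2* (log2 difference 0.52 ± 0.11 in FANKO mice), *Ccl9* (0.45 ± 0.14) and *Cxcl9* (2.28 ± 0.11). That count too depends on the filter on low counts, which 44 tested members passed in FANKO BAT by itself and fewer in WT BAT. *Ccr1*, *Ccl11* and *Ackr2* stayed lower in BAT, as did *Ccl24* (-3.63 ± 0.21), and *Ackr3* was lower in BAT of FANKO mice only (-0.78 ± 0.11). The WT and FANKO contrasts between depots share no sample.

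The summed levels follow these shifts. All tested and untested ligands together came to 114 to 184 CPM in WT BAT and 453 to 714 CPM in FANKO BAT, and to 246 to 331 CPM in WT eWAT and 197 to 496 CPM in FANKO eWAT. Signaling receptors summed to 23.5 to 43.9 and 168 to 421 CPM in BAT and to 83.7 to 146 and 83.1 to 250.1 CPM in eWAT. Atypical receptors summed to 28.5 to 127 and 17.6 to 38.9 CPM in BAT and to 41.9 to 99.6 and 30.6 to 47.1 CPM in eWAT. Thus ligands and receptors were separate between genotypes in BAT and overlapped in eWAT.

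Levels can be ranked across genes only per length, for which CPM were divided by the union of exons in kilobases (RPKM). In WT BAT the highest medians were *Ackr3* (17.0 RPKM), *Ccl11* (9.22), *Cxcl12* (8.83), *Cxcl14* (6.82) and *Ccr10* (4.38). In FANKO BAT they were *Cxcl10* (46.0 RPKM), *Ccl5* (38.9), *Cxcl9* (34.0), *Ccl6* (24.3) and *Ccl8* (21.8). The top 5 of the 2 genotypes in BAT had no gene in common, but this rests on the cut at 5. *Cxcl9*, in the FANKO list, came next in WT BAT at 4.18 RPKM (2.43 to 5.17), close to *Ccr10* (2.23 to 5.67). In WT eWAT the order was *Ccl6* (33.3 RPKM), *Ccl11* (23.2), *Ackr3* (13.4), *Ccl9* (13.0) and *Cxcl12* (9.41). In FANKO eWAT it was *Ccl8* (33.8 RPKM), *Ccl6* (32.2), *Ccl11* (17.9), *Ccl9* (13.1) and *Ccr2* (10.2). In each of the 4 orders every gene's sample range overlapped that of the next. Genes were not compared within libraries, so whether neighbours differ was not tested. *Cxcl10* in FANKO BAT, for example, ranged from 23.2 to 122 RPKM and *Ccl5* from 23.1 to 54.9 RPKM.

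Ligands were then set against receptors in 32 known pairs, of which 22 had both partners tested. In BAT both partners rose in 16 pairs, and both fell in *Ccl27a* with *Ccr10* and *Ccl28* with *Ccr10*. The 16 stand beside 36 of 45 members that rose, and in 14 of them a partner had passed the filter on low counts only through libraries other than WT BAT. The other pairs with both higher were *Cxcl16* with *Cxcr6* and *Cx3cl1* with *Cx3cr1*, among 7 pairs whose partners passed the filter in WT BAT. They moved in opposite directions in *Ccl24* with *Ccr3* and *Ccl25* with *Ccr9*, where the ligand fell. Only the receptor passed in the 2 pairs of *Cxcl12*, with *Cxcr4* higher and *Ackr3* lower. In eWAT both partners rose in 2 pairs, *Cxcl10* with *Cxcr3* and *Xcl1* with *Xcr1*. Both fell in *Cxcl13* with *Cxcr5*, only the ligand passed in 11 pairs, only the receptor in 3 and neither in 5. As given above, the eWAT call of *Xcr1* was lost under most alternatives, and those of *Cxcl13* and *Cxcr5* without 3 WT eWAT libraries. Members recur across pairs, so pairs are not independent. The *Ccl2* group shows the contrast between depots: *Ccr2* was at a median of 7.40 CPM in WT BAT, below its 62.2 CPM in WT eWAT, and at 99.7 CPM in FANKO BAT, above its 69.2 CPM in FANKO eWAT. Of the ligands of *Ccr7*, *Ccl19* had medians of 0 to 0.215 CPM, and the near-identical *Ccl21* copies had no count, which leaves their level unknown, while *Ccr7* reached a median of 9.71 CPM in FANKO BAT.

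**Figure D4:**
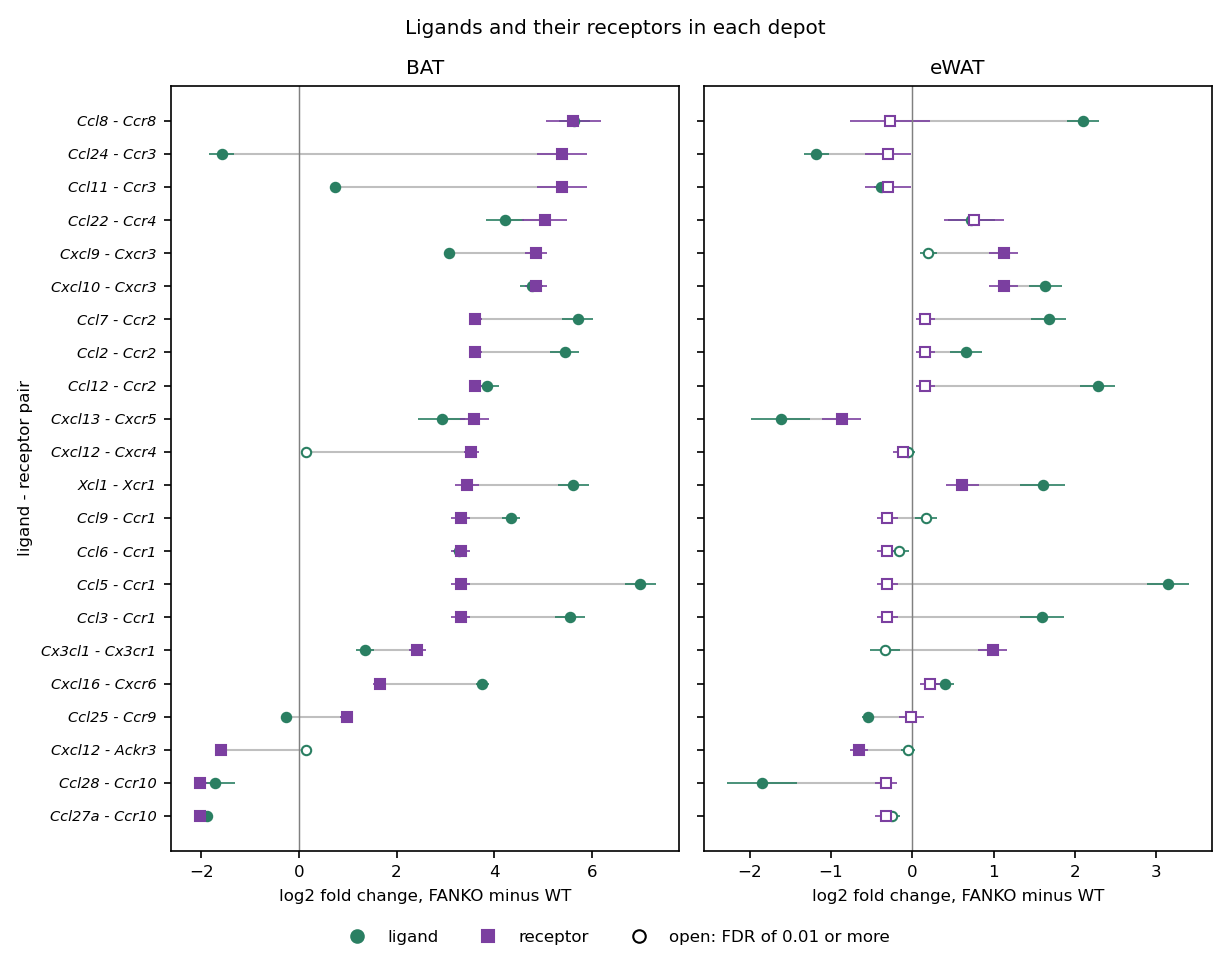
FANKO versus WT log2 fold changes of ligand (circle) and receptor (square) in the 22 pairs with both partners tested, in BAT and eWAT, with bars of 1 standard error and open symbols at an FDR of 0.01 or above. In BAT 16 pairs have both symbols filled and above 0, and in eWAT 2 do, of which *Xcl1* with *Xcr1* rests on a call of *Xcr1* lost under most alternatives.

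Other genes of the pathway were listed by function. Of 36 such genes, all tested, 32 rose and 3 fell in BAT (*Ppbp*, *Grk3* and *Grk5*, of which *Grk5* turned to 0.15 with scaling by library size alone), and 17 rose and 4 fell in eWAT. A list of 10 genes held inducers of chemokines together with *Nfkbia*, the gene of an NF-kB inhibitor. All 10 rose in BAT, where 33.1% of all genes tested rose. Among them were *Tnf* (log2 fold change 5.01 ± 0.20), *Ifng* (5.92 ± 0.55) and *Il1b* (3.26 ± 0.25). In eWAT 6 of the 10 rose, beside 27.6% of all genes tested, and *Irf1* and *Rela* turned to -0.027 and -0.12 with scaling by library size alone. Of 20 genes of receptor signaling, 17 rose and 2 fell in BAT and 11 rose and 1 fell in eWAT, where *Gnai2* and *Grk5* turned to -0.11 and -0.062 with that scaling. The largest was *Rgs1*, which shortens chemokine receptor signals in lymphocytes, at 7.84 ± 0.31 in BAT and 2.95 ± 0.24 in eWAT. *Dpp4*, a protease that trims CXCL10 and CXCL12, rose by 3.21 ± 0.11 in BAT and fell by 0.74 ± 0.09 in eWAT. Chemerin (*Rarres2*), an adipose chemoattractant, and its receptor *Cmklr1* rose in BAT (0.73 and 1.49) and fell in eWAT (-0.61 and -0.60).

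Time of day was tested with a 24-h cosine and sine for each depot and genotype. A rhythm passed for 4 members in WT BAT (*Ackr3*, *Ackr4*, *Cxcl12* and *Cxcr4*), where 13.9% of all genes passed, and for *Ackr4* alone in FANKO BAT, where 2.84% of all genes passed. In WT eWAT it passed for 6 members (*Ackr3*, *Ackr4*, *Cxcl12*, *Cx3cr1*, *Cx3cl1* and *Ccl28*), where 9.38% of all genes passed, and in FANKO eWAT for 7 (*Ackr4*, *Cxcl12*, *Cxcl10*, *Ccl7*, *Ccl11*, *Ccl4* and *Ccl12*), where 6.77% did. Without the WT eWAT library with epithelial genes, 4 members passed in WT eWAT. A difference in rhythm between genotypes passed for *Ackr3* in BAT (2.76% of all genes passed) and for no member in eWAT by edgeR or DESeq2 (1.15% of all genes passed), where 6 had an unadjusted edgeR p under 0.05.

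*Ackr4* was rhythmic in each of the 4 groups. Its mean at ZT 6, 10, 18 and 22 was 20.4 ± 2.07, 21.0 ± 7.64, 8.37 ± 2.32 and 4.12 ± 0.984 CPM in WT BAT (± SD, n = 4, edgeR adjusted p = 2.66e-10). In FANKO BAT it was 4.85 ± 1.23, 4.71 ± 1.28, 1.70 ± 0.713 and 2.28 ± 0.732 CPM (edgeR adjusted p = 0.000127), so that the light-phase level remained above the dark-phase level at a lower mean. In WT eWAT the values were 9.38 ± 1.70, 18.1 ± 4.34, 8.34 ± 3.58 and 6.38 ± 1.03 CPM (edgeR adjusted p = 1.51e-05) and in FANKO eWAT 5.62 ± 0.678, 7.04 ± 1.05, 2.58 ± 0.317 and 2.43 ± 0.398 CPM (edgeR adjusted p = 8.76e-06). The difference in rhythm between genotypes did not pass in BAT (edgeR adjusted p = 0.187) or eWAT (0.339). *Ackr3* had means of 72.4 ± 26.0, 61.3 ± 6.79, 29.6 ± 8.35 and 58.9 ± 9.90 CPM in WT BAT (edgeR adjusted p = 5.34e-05), with its low point at ZT 18, and of 15.7 ± 4.96, 19.4 ± 6.88, 17.4 ± 3.54 and 17.5 ± 3.17 CPM in FANKO BAT (0.809). The WT call was lost without replicate 4 (0.0145), as was that of *Ackr4* in FANKO BAT (0.0148). The difference in its rhythm between genotypes in BAT had an edgeR adjusted p of 0.00771, but of 0.0167 to 0.123 when replicate 1, 2, 3 or 4 was left out and of 0.209 without the 7 BAT libraries with muscle markers. In WT eWAT *Ackr3* was highest at ZT 22 instead, with means of 35.2 ± 5.70, 37.0 ± 5.25, 53.2 ± 5.29 and 71.4 ± 11.1 CPM (edgeR adjusted p = 0.00022, and 0.014 without replicate 3). *Cxcl12*, the ligand it takes up, was higher at ZT 6 and 10 than at ZT 18 and 22 in WT BAT, with means of 82.2 ± 16.1, 88.3 ± 5.87, 56.4 ± 12.4 and 55.8 ± 2.04 CPM (edgeR adjusted p = 0.000525).

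Of the 7 members with a rhythm in FANKO eWAT, *Cxcl10*, *Ccl7*, *Ccl4* and *Ccl12* had their lowest mean log2 level at ZT 18. *Ccl2*, *Ccl3*, *Ccl5*, *Ccl8*, *Cxcl1*, *Cxcl2* and *Cxcl9* were lowest at ZT 18 as well, but had no rhythm that passed (edgeR adjusted p of 0.012 to 0.437). *Cxcl10* had means of 37.9 ± 21.7, 21.8 ± 11.96, 7.09 ± 2.81 and 31.6 ± 13.9 CPM at ZT 6, 10, 18 and 22 (± SD, n = 4, edgeR adjusted p = 0.000128), against 7.41 ± 2.60, 9.46 ± 0.536, 5.26 ± 2.02 and 5.79 ± 1.99 CPM in WT eWAT (0.313), and its adjusted p in FANKO eWAT was 0.0116 without replicate 3. *Ccl7* had 14.9 ± 8.73, 12.1 ± 8.23, 2.92 ± 0.639 and 10.1 ± 4.82 CPM in FANKO eWAT (edgeR adjusted p = 0.000815), and this call was lost without FANKO ZT 6 replicate 3, the library with the most *Ptprc* (0.0175), and without replicate 1 (0.0327) or replicate 3 (0.0282). At ZT 6 that library held 69.1 CPM of *Cxcl10* and 26.9 CPM of *Ccl7*. Without it 4 members were rhythmic in FANKO eWAT. The difference between genotypes did not pass for *Cxcl10* (edgeR adjusted p = 0.0437) or *Ccl7* (0.306). *Cx3cr1* had means of 4.60 ± 1.49, 1.09997 ± 0.346, 1.15 ± 0.658 and 2.99 ± 0.339 CPM in WT eWAT (edgeR adjusted p = 3.74e-06). In FANKO eWAT it was also highest at ZT 6 by mean log2 level. Its rhythm there passed only under alternatives: DESeq2 (adjusted p = 0.00991), and edgeR without replicate 4 (0.0076) or without 3 WT eWAT libraries (0.00974). In FANKO eWAT *Ccl11* was highest at ZT 10, with 19.0 ± 2.69, 29.0 ± 3.501, 17.7 ± 3.95 and 16.2 ± 3.16 CPM (edgeR adjusted p = 0.000851, and 0.0109 without replicate 1 or 0.0191 without replicate 3). In WT eWAT *Ccl11* was also highest at ZT 10 by mean log2 level. Its rhythm there passed only under alternatives, among them DESeq2 (adjusted p = 0.00711) and edgeR without replicate 4 (0.00919).

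**Figure D5:**
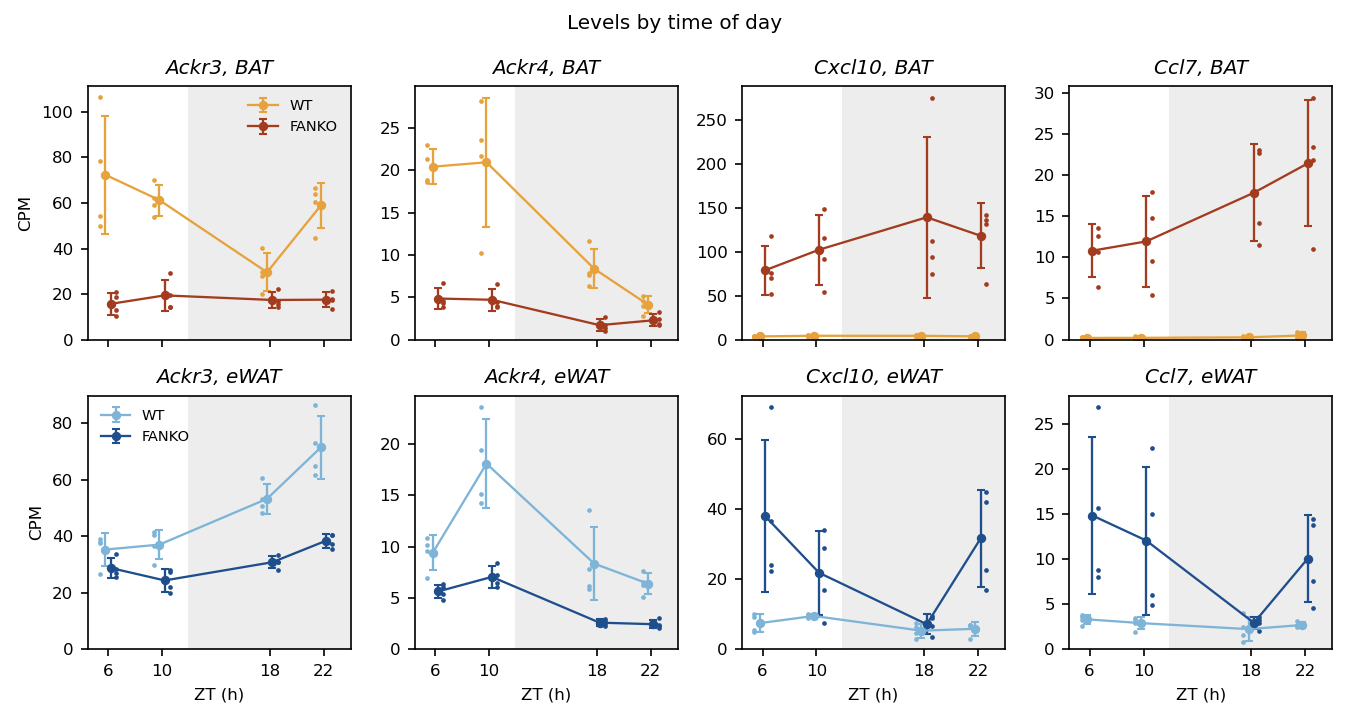
CPM of *Ackr3*, *Ackr4*, *Cxcl10* and *Ccl7* by zeitgeber time (h) in the 4 depot and genotype groups, with points for single libraries, lines through the mean, bars of 1 SD (n = 4) and the dark phase in grey. *Ackr4* is highest at ZT 6 or 10 in every group, *Ackr3* dips at ZT 18 in WT BAT, and *Cxcl10* and *Ccl7* dip at ZT 18 in FANKO eWAT.

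Members that were not tested had few or no counts. *Ccl20*, *Ccl27b* and the *Ccl21* and *Ccl27* copies, with the scaffold copy of *Ccl19*, made up the 11 with no count, and near-identical copies among them share reads in ways that the counting could have dropped. The other 11 were *Ccl1*, *Ccl17*, *Ccl19*, *Ccl26*, *Ccr1l1*, *Cxcl3*, *Cxcl5*, *Cxcl15*, *Cxcl17*, *Cxcr1* and *Cxcr2*. The highest single library among them was 0.922 CPM, for *Ccl17* in WT eWAT. *Cxcr2*, the neutrophil receptor of *Cxcl1* and *Cxcl2*, had medians of 0 CPM in WT BAT and 0.0685 CPM in FANKO BAT, so that its ligands rose in BAT where it was not testable.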

How the data were processed

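Counts of read pairs per gene were deposited by the authors as 1 table of whole numbers, not normalized, for 64 samples. Per the submitters' processing notes and the study's methods, 38-bp paired-end reads of rRNA-depleted total RNA were quality-checked with FastQC 0.11.5 and MultiQC 1.2, aligned to GRCm38.p5 with STAR 2.5.3a and counted with featureCounts 1.5.3. Whether the counting used strand, and how it treated reads with several matches, is not given in the sources used here. Groups came from the sample labels (depot, genotype, ZT and replicate number). The labels do not say which samples came from the same mouse, and p-values measure the spread between these samples.

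Gene symbols, positions and exon lengths were taken from a GENCODE annotation of GRCm38. In edgeR 4.0.16 (R 4.3.3), genes were filtered with filterByExpr (minimum count 10, minimum total 15), scaled with TMM and fitted by quasi-likelihood in 1 model of all 64 samples that gives each depot and genotype its own mean level and a 24-h cosine and sine term. P-values were adjusted (Benjamini-Hochberg) over 20249 genes, and the threshold was an FDR of 0.01. CPM are TMM-scaled, RPKM are CPM per kilobase of exons, and counting intervals are exact 95% Poisson intervals of a ratio, given for members with under 20 counts in WT BAT. Standard errors are those implied by the F statistic. The fits were tested on simulated data.

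Full values were due to members with the largest fold changes (8 per depot, mean CPM at least 0.5), the highest RPKM in WT tissue, the smallest p for the difference between depots, the largest differences between depots, the smallest rhythm p-values, and their pair partners. Members described outside that rule were chosen after their values were seen. The members, pairs, marker and pathway lists were chosen with earlier results of these data known. Alternatives were RLE factors, library size alone, other filters, an FDR of 0.05, leaving out each replicate, replicate blocks, time as a factor, separate fits by depot, the longest transcript, and DESeq2 1.42.0, and leaving out libraries that stood apart, which was chosen after seeing the data. With 6117343 to 30544847 counts per sample, a count of 1 equals a CPM well under 1, and members at or near 0 were limited by counting. No sample was left out. The values of 1 receptor, which counts toward the totals but not the pairs, are not reported here.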

Additional observations from a re-analysis of the deposited data

Results flagged for a closer look

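The genotype effect differed between the depots for 32 of the 35 members with full values, by the test of that difference in edgeR at an FDR of 0.01 (64.3% of all genes). These members were chosen in part for large values or small p-values in this comparison, so the share is a description only. On the log2 scale, as the FANKO minus WT change in BAT minus that in eWAT, the difference among CC ligands was 4.78 for *Ccl2*, 4.17 for *Ccl9*, 4.03 for *Ccl7*, 3.96 for *Ccl3*, 3.85 for *Ccl5*, 3.83 for *Ccl4*, 3.54 for *Ccl8*, 3.45 for *Ccl6*, 1.57 for *Ccl12*, 1.12 for *Ccl11* and -1.63 for *Ccl27a*. Among the other ligands it was 4.54 for *Cxcl13*, 4.02 for *Xcl1*, 3.36 for *Cxcl16*, 3.14 for *Cxcl10*, 2.89 for *Cxcl9*, 1.69 for *Cx3cl1* and 0.62 for *Cxcl14*. Among signaling receptors it was 5.90 for *Ccr8* and 5.69 for *Ccr3*, fitted values that rest on 3 and 4 counts over the 16 WT BAT libraries and depend on the prior count, and 4.59 for *Ccr7*, 4.46 for *Cxcr5*, 3.73 for *Cxcr3*, 3.64 for *Cxcr4*, 3.63 for *Ccr1*, 3.45 for *Ccr2*, 2.83 for *Xcr1*, 1.43 for *Cxcr6*, 1.43 for *Cx3cr1* and -1.70 for *Ccr10*, and among atypical receptors -0.94 for *Ackr3* and -0.58 for *Ackr4*. *Ackr4* and *Ackr3* lost the call, and *Ackr4* its direction, with scaling by library size alone, as the report gives. *Cxcl14* lost the call without replicate 1, 2 or 4 (adjusted p = 0.0185, 0.0115 and 0.0146), and *Ccl12* without replicate 1 (0.0105).

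The rhythm of *Ackr3* differed between genotypes in BAT with an edgeR adjusted p of 0.00771, in a comparison that lost its call without any 1 of the replicate numbers.

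Single samples lay far from the other 3 of their depot, genotype and time point, by Dixon's ratio at its 95% critical value, in 4 of 96 groups checked, where chance gives about 1 in 20. *Cx3cr1* was at 4.47 CPM in FANKO eWAT ZT 6 replicate 2, *Cxcl10* at 62.8 CPM in FANKO BAT ZT 22 replicate 3 and at 2.81 CPM in WT eWAT ZT 22 replicate 3, and *Ackr3* at 26.7 CPM in WT eWAT ZT 6 replicate 4.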

How the results depend on the processing

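Of the fold changes and rhythm tests of single members recomputed under the alternatives, 2854 kept their direction and side of the threshold, 67 fell short of the threshold, 31 passed it newly and 23 turned. Counts of members and RPKM are outside this tally. Counts that moved, by over 1.5 times or to or from 0, are given below. Under an FDR of 0.05, 8 members were lower in BAT than eWAT of FANKO mice (5 at 0.01), and 8, 5, 2 and 1 had a rhythm in WT BAT, a rhythm in FANKO BAT, and a difference of rhythm in BAT and in eWAT. RLE factors, library size alone, no filter, a CPM filter, leaving out 7 BAT libraries and DESeq2 each gave 3 for that depot count. Under library size alone 17 members fell in eWAT, 2 had a smaller effect in BAT, and 1 had every FANKO BAT sample lower. Without the 7 BAT libraries, rhythms passed for 2 members in FANKO BAT and the difference in BAT for 0, and DESeq2 gave 2 for that difference. Without 3 WT eWAT libraries 1 member had every FANKO eWAT sample lower.

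Leaving out a replicate number, or 1 library, gave 3 to 5 members lower in BAT than eWAT of FANKO mice, rhythms for 1 to 4 members in WT BAT, 0 to 2 in FANKO BAT, 2 to 6 in WT eWAT and 1 to 9 in FANKO eWAT, and a difference of rhythm for 0 to 1 in BAT. It gave 2 to 3 members with every FANKO BAT sample lower, and in eWAT 0 to 2 higher and 0 to 1 lower. Without replicate 3 the FANKO effect in eWAT turned to -0.047 for *Ccl9* (-0.047 to 0.29 over these settings) and -0.0001 for *Ccr2* (up to 0.25), and the WT depot difference to -0.016 for *Ccl28* (up to 1.60) and -0.072 for *Cx3cr1* (up to 0.16). The difference between depots for *Ccl28* turned to -0.19 and -0.98 without replicates 1 and 2, to -1.17 without WT eWAT ZT 6 replicate 2 and to -0.26 with time as a factor, with up to 0.45 without replicate 4. The WT depot difference of *Cx3cl1* turned to 0.24 without replicate 2 and to 0.17 without that library, with -0.38 without replicate 3.

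Under library size alone the FANKO effect turned to 0.39 for *Cxcl14* in BAT, and in eWAT to -0.071 for *Ccl9*, -0.077 for *Ccr2*, -0.045 for *Cxcl9* and -0.030 for *Cxcr6*. The difference between depots turned to 0.26 for *Ackr4* and 0.42 for *Ccl24*, and the WT depot difference to -0.59 for *Ackr3*, -0.47 for *Ccl28*, -0.55 for *Ackr4* and -0.69 for *Cx3cr1*. Median RPKM moved to 6.06 for *Cxcl12*, 4.51 for *Cxcl14* and 3.15 for *Ccr10* in WT BAT, and to 41.05 for *Ccl6*, 16.03 for *Ccl9* and 11.44 for *Cxcl12* in WT eWAT. By the longest transcript it was 12.82 for *Cxcl12* in WT BAT, 41.56 for *Ccl6* and 13.67 for *Cxcl12* in WT eWAT. The cause was not tested beyond the construction of each alternative.

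The labels tie equal replicate numbers to no shared mouse, litter or day. Correlations of same-numbered samples ranged from -0.13 to 0.31 between depots and from -0.13 to 0.22 between genotypes, and were not over 0.1 in every pair. Yet 18 and 15 of 32 samples were closest to their own number, where equal shares among 4 candidates give 8, a hint from the data, not the design. With the replicate number as a block, 36 members rose and 7 fell in BAT, 16 rose and 10 fell in eWAT, and *Ccl28* had a difference between depots of -0.0084. Pairing depots by genotype, time and number gave -0.65 for *Ccl28*. Removal of the named libraries was chosen after seeing the data. Low counts limit *Ccr3*, *Ccr4*, *Ccr6*, *Ccr8* and *Cxcl2*.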
